A study of Mus musculus with 4 samples.

Results

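The genes described here encode the heavy and light chains of antibodies, measured as RNA in abdominal aorta of male mice aged 12 weeks, 4 weeks after CaPO4 had been used to injure the vessel. Members were chosen by their annotation and by the scanner's detection flag: non-control probes whose annotation names an immunoglobulin heavy, kappa or lambda gene and that stood well above background on at least 2 of 4 arrays, with the probe of highest mean signal kept for each name. The wording found 220 names, 68 of them passed, and 22497 genes of all kinds passed the same filter. Of the 68, 66 are antibody chains (7 heavy constant, 22 heavy variable, 1 kappa constant, 32 kappa variable, 2 lambda constant and 1 lambda variable name, and 1, Igh-VJ558, put in a class of names by clone or accession). The other 2, Rbpj and Rbpjl, are transcription factor genes caught only because their names mention the kappa J region.

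Tissue labelled SR-A1-/- and tissue labelled wild type, both treated with CaPO4, were each hybridised to 2 one-colour arrays, with 1 RNA sample per array. SR-A1 is a scavenger receptor of macrophages encoded by Msr1. The labels give no strain, no uninjured group and no statement of whether an array is 1 mouse, so every p-value below measures only the spread between these arrays. The design text speaks of 2 independent experiments.

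Antibodies are made by B cells and, in far larger amounts, by plasma cells, the secreting cells that B cells become. Each antibody joins heavy chains to kappa or lambda light chains, and each chain pairs a variable region, assembled from one of many variable gene segments and binding antigen, with a constant region. The heavy constant region sets the class: Ighm and Ighd mark naive B cells and IgM secretion, while Igha, Ighg2b, Ighg2c and the other downstream genes are used after class switching. In injured and atherosclerotic arteries, B cells and plasma cells are known to gather in the adventitia around the vessel.

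Because variable segments resemble each other, the probe sequences bear on how far neighbouring members can be told apart. Each probe has 60 bases and is written as the files give it, with positions on mouse build mm9. Probes of 4 constant genes are shown first. For Ighg2b and Igha these are the probes that gave the results below. For Ighg2c and Igkc these are the second probes of the gene, which were detected like the first. The tests and ratios of Ighg2c and Igkc rest on their brightest probes, which are not shown. At the best ungapped placement, the brightest probes of any pair of constant-gene members matched at no more than 26 bases, and the 4 probes shown matched those of the other constant genes, and each other, at no more than 23. Probes were compared with probes and not with whole transcripts. The counts therefore cannot show whether a probe also binds RNA of a related constant gene.
Ighg2b, chr12:114544738-114544797, minus strand: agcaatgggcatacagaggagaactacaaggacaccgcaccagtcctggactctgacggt
Ighg2c, chr12:114525600-114525659, minus strand: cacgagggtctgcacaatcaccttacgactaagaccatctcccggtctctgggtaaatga
Igha, chr12:114496985-114497044, minus strand: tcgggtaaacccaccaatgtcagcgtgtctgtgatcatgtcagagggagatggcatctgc
Igkc, chr6:70676692-70676751, plus strand: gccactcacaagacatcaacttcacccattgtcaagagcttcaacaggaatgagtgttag

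Among kappa variable members, 3 probes with large differences carry almost the same sequence. Capitals mark the run of 39 bases that all 3 share.
Igkv4-57-1, chr6:69494355-69494414, minus strand: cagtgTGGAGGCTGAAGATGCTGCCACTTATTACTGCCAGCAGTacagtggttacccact
Igkv4-62, chr6:69349806-69349865, minus strand: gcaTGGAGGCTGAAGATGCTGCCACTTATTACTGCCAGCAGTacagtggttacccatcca
Igkv4-68, chr6:69254828-69254887, minus strand: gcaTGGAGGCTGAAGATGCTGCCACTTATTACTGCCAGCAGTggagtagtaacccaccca

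At the best ungapped placement, Igkv4-57-1 and Igkv4-62 matched at 54 of 58 bases, Igkv4-62 and Igkv4-68 at 55 of 60, and Igkv4-60 and Igkv4-63 at 54 of 56. Such members may report on the same RNA and are not separate measurements. The kappa variable probe with the largest difference, that of Igkv4-55, shares a run of 19 bases with that of Igkv4-71, given in capitals.
Igkv4-55, chr6:69557315-69557374, minus strand: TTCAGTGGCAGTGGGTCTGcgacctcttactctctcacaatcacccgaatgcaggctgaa
Igkv4-71, chr6:69193231-69193290, minus strand: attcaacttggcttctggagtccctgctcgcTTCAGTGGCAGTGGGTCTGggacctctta

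The last pair holds Igkv4-72, the Igkv4 member that differed in the opposite direction, and its closest member, Igkv4-58. They match at 46 of 57 bases, and capitals mark the longest shared run of 20 bases.
Igkv4-72, chr6:69176986-69177045, minus strand: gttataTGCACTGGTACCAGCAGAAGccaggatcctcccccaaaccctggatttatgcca
Igkv4-58, chr6:69450383-69450442, minus strand: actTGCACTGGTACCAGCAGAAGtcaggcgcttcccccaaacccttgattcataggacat

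All levels are log2 of the processed signal relative to the array's 75th percentile, and all differences are arrays labelled knockout minus arrays labelled wild type, ± the limma standard error from 2 arrays a group. Msr1, the gene named by the genotype, did not follow the labels. Its tested probe read −1.26 and −2.09 on the arrays labelled knockout, against −5.30 and −2.10 on those labelled wild type (difference 2.03 ± 1.09, limma adjusted p = 0.965), and a second probe differed by 2.82. Neither probe was above background on wild type replicate 1, without which the differences were 0.42 and 0.68, and whether a probe lies in the deleted stretch is not given in the sources used here. Groups are therefore named by their labels throughout.

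The 75th percentile of the signal was 245 and 133 on knockout replicates 1 and 2, against 132 and 220 on wild type replicates 1 and 2, so each group held a bright and a dim array. Smooth muscle genes were present on all arrays, with Acta2 between 8.57 and 9.47. Knockout replicate 2 stood apart in white adipocyte genes: Adipoq, an adipocyte hormone, read 5.36 and −2.93 on the arrays labelled knockout, against 4.50 and 5.24 on those labelled wild type. Wild type replicate 1 was lowest in the summed level of 8 macrophage markers. The sum was 218.4 and 172.1 times the 75th percentile on the arrays labelled knockout, against 62.39 and 283.9 on those labelled wild type. Between the wild type arrays, Lyz2 (5.25 and 7.86), Cd68, Adgre1 and Cd14 were lower on replicate 1. C1qa (1.22 and 1.41), Fcgr1 (−1.94 and −1.99), Csf1r and Mertk differed little between them. The sum of 7 skeletal muscle markers was 128.4 and 223.6 on the arrays labelled knockout, against 1096 and 331.1 on those labelled wild type. For named genes detected in both groups whose levels did not overlap, the difference without an array is given where leaving it out lowers the difference by more than 1.5 times. For genes detected in 1 group alone, levels or a bound are given instead, and these can rest mostly on 1 array.

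More antibody genes were detected on the arrays labelled knockout. Of the 218 chain names on the array, passing or not, 65 and 83 were above background on the arrays labelled knockout, against 23 and 32 on those labelled wild type. Over all probes the detected share was 62.6% and 60.0% on the arrays labelled knockout, against 57.6% and 61.5% on those labelled wild type. The wild type array with the fewer chain names was the dim one, whereas among the arrays labelled knockout the dim one had more. Most of the gap came from variable genes: 31 and 43 of 96 kappa variable names and 21 and 27 of 99 heavy variable names were detected on the arrays labelled knockout, against 10 and 12 kappa and 5 and 9 heavy variable names on those labelled wild type.

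The filter itself used these detections. Of the 66 chains, 32 (48.5%) were detected on the 2 arrays labelled knockout but on neither labelled wild type, a pattern found in 1.44% of all 22497 genes, and these 32 could only come out higher on the arrays labelled knockout. The opposite pattern was held by 1 chain, Igkv1-35, and by 0.404% of all genes. For such chains the fold is only a lower bound, the mean of the arrays that detected the gene over the mean of the lowest signal called above background on each array of the other group, since values under that signal have no order. The bound reached 2-fold for 16 of the 32 and stayed under it for the other 16 and for Igkv1-35. The 19 chains above background on all 4 arrays did not pass through 1 group, and they are given apart below.

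No chain passed an adjusted p of 0.05 in limma, nor did any of the 22497 genes (percent called 0), and the lowest adjusted p was 0.0866 among chains, for Igkv4-55, and 0.0539 among all genes. Both arrays labelled knockout exceeded both labelled wild type for 47 of 66 chains, against 16.1% of all genes, and 3 chains were lower on both, against 13.7% of all genes. At an unadjusted p under 0.05 there were 38 chains higher and 2 lower, against 3.84% and 2.45% of all genes. The median difference of the 66 chains was 1.82, or 0.79 with the chains detected in 1 group alone set at their bound, against −0.00575 over all genes. These figures moved with the processing: after normexp background correction the median was 0.171, with 53 chains higher and 13 lower. Without wild type replicate 1 or 2 the median was 2.02 or 1.56, and without knockout replicate 1 or 2 it was 2.20 or 1.39. Each of those fits holds 1 array in 1 group, and the 2 arrays of the other group alone give the spread. The 32 chains detected on the arrays labelled knockout alone had passed the filter through that group, which favours higher values there.

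For the 19 chains above background on all 4 arrays the numbers were smaller. Of these 9 were higher on both arrays labelled knockout, 2 were lower and 8 overlapped, where 15% and 13.8% of the 20068 genes above background on all arrays were higher and lower. At an unadjusted p under 0.05, 6 were higher and 1 lower, against 2.78% and 2.13% of those genes, and their median difference was 0.629. The 47 chains above background on 2 or 3 arrays had a median of 2.29, and 32 of them passed through the arrays labelled knockout alone. With no filter, 69 of the 218 chain names were higher on both arrays labelled knockout, 6 were lower, and the median difference was 0.377. Of those names 125 were above background on 0 arrays, where values have no order. The share over all genes without the filter was not computed, so these counts have no background to be read against. In bulk tissue, more cells of a type and more RNA per cell cannot be told apart.

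**Figure D1:**
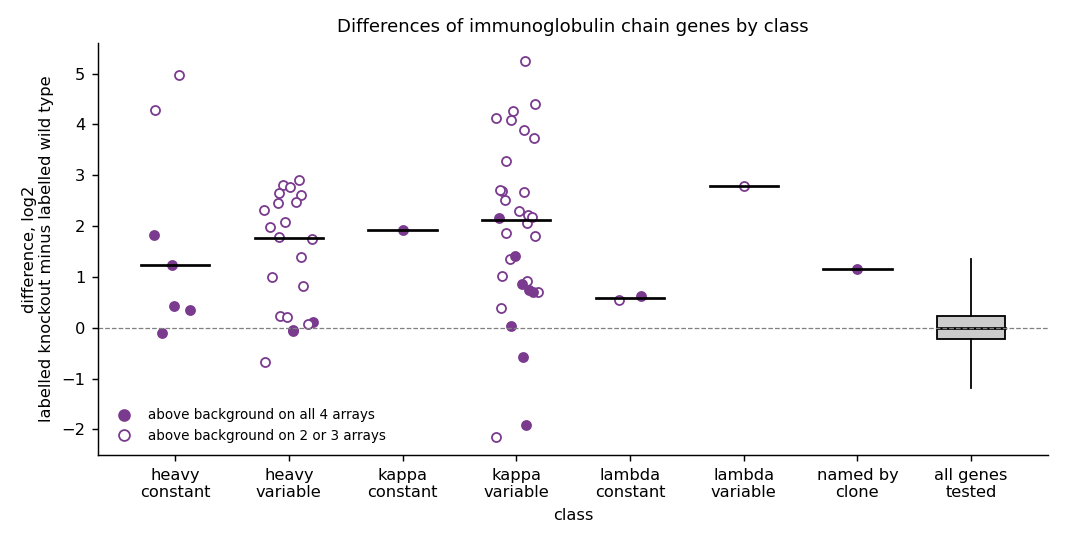
Difference of each chain gene in log2 (arrays labelled knockout minus arrays labelled wild type, vertical axis) by class; black bars are class medians, filled circles were above background on all 4 arrays and open circles on 2 or 3. The box and lines for all 22497 genes span their middle 50% and 95%, and most kappa and heavy variable circles lie above that range, while the filled ones mostly lie closer to 0. Open circles include chains that passed the filter through the arrays labelled knockout alone and could only come out higher. With members at their bound, the medians were 0.46 for heavy variable and 1.25 for kappa variable genes.

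Ighg2b and Ighg2c, both used after class switching, had the largest differences among the constant-gene members, with all arrays and with any single array left out, although no test between genes was run. Ighg2b, which encodes the constant region of IgG2b, read −0.47 and 0.45 on the arrays labelled knockout, against −5.59 and −4.38 on those labelled wild type. Both arrays labelled knockout lay far above both labelled wild type, of which replicate 1 was not above background. The difference was 4.97 ± 0.55 (limma adjusted p = 0.160), and between the bright arrays, where both were detected, it was 3.91.

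Ighg2c, the constant region of IgG2c, read −0.06 and 1.11 on the arrays labelled knockout, against −4.72 and −2.81 on those labelled wild type, a difference of 4.29 ± 0.76 (limma adjusted p = 0.312). Again the groups stood apart and wild type replicate 1 was not above background. The second probe, shown above, read −1.86 and 0.21 on the arrays labelled knockout, against −5.25 and −3.68 on those labelled wild type, and differed by 3.64. Another probe of the same transcript was not above background on any array.

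Igha, the constant region of IgA, the class that plasma cells of mucosal tissue secrete, read 4.27 and 5.11 on the arrays labelled knockout, against 3.19 and 2.56 on those labelled wild type. It was detected on every array, averaging 4.69 ± 0.60 on arrays labelled knockout and 2.87 ± 0.44 on those labelled wild type (SD, n = 2 each). Its difference was 1.82 ± 0.43 (limma adjusted p = 0.485), with no overlap. Igh-VJ558, which the array annotates as a heavy chain name, is measured by a probe that lies near that of Igha rather than among the variable genes. It differed by 1.16 ± 0.57, also without overlap, and by 0.41 without knockout replicate 2.

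IgM was represented by 2 transcripts of Ighm. ENSMUST00000103426 read 3.07 and 2.02 on the arrays labelled knockout, against 0.99 and 1.62 on those labelled wild type, a difference of 1.24 ± 0.47 (limma adjusted p = 0.785) that was 0.72 without knockout replicate 1, and its other probe differed by 0.64. ENSMUST00000177715 read 1.92 and 0.95 on the arrays labelled knockout, against 0.87 and 1.16 on those labelled wild type. Here the groups overlapped and the difference of 0.42 ± 0.42 was no larger than its error.

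Ighd, the constant gene of IgD on naive B cells, also had 2 transcripts, and both overlapped between groups. ENSMUST00000192250 read −2.71 and −2.26 on the arrays labelled knockout, against −1.89 and −2.86 on those labelled wild type (difference −0.10 ± 0.44). ENSMUST00000194162 read −1.62 and −2.59 on the arrays labelled knockout, against −3.10 and −1.83 on those labelled wild type (difference 0.35 ± 0.58). The direction of both turned when wild type replicate 1, or knockout replicate 1, was left out.

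Set against Ighm ENSMUST00000103426 on the same array, Ighg2b stood at −3.54 and −1.57 log2 on the arrays labelled knockout, against −6.58 and −5.998 on those labelled wild type. Ighg2c relative to Ighm was −3.13 and −0.91 on the arrays labelled knockout, against −5.71 and −4.43 on those labelled wild type. The groups did not overlap in either ratio. Since neither gene was above background on wild type replicate 1, its ratios there are upper limits. Without that array the ratios differed by 3.44 and 2.41, and without knockout replicate 2 by 2.75 and 1.94. The ratios of Igha, Igkc, Iglc3 and Ighd ENSMUST00000192250 to Ighm overlapped. Those of Iglc1, Ighd ENSMUST00000194162 and Ighm ENSMUST00000177715 were lower on both arrays labelled knockout, by −0.70, −0.89 and −0.82 log2. Iglc1 was not above background on knockout replicate 2 or wild type replicate 1. Its ratios on those arrays are upper limits, so whether its groups stand apart is not settled. With 2 arrays against 2, an exact two-sided permutation test of 1 ratio cannot go below 0.333.

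The other heavy constant names did not become members. Ighg1, for IgG1, was above background on knockout replicate 2 alone. The probes that the wording covers for Ighg3, Ighe and a second Igha transcript were not above background on any array. Another probe named Ighg3, outside the wording, was above background on all 4 and overlapped between groups, with a difference of 0.29.

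The kappa constant gene Igkc, shared by all kappa chains, read 2.70 and 3.50 on the arrays labelled knockout, against 1.27 and 1.08 on those labelled wild type. Neither group overlapped the other, and the difference was 1.93 ± 0.38 (limma adjusted p = 0.368). Its second probe, shown above, read 2.13 and 3.16 on the arrays labelled knockout, against 0.62 and 0.55 on those labelled wild type. The 2 probes differed by 1.93 and 2.06, so the kappa result does not rest on 1 probe.

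The lambda constant genes differed less. Iglc1 read −4.08 and −4.55 on the arrays labelled knockout, against −4.88 and −4.84 on those labelled wild type, close to background (difference 0.55 ± 0.31, and 0.31 without knockout replicate 1). Only knockout replicate 1 and wild type replicate 2 were above background for Iglc1. Iglc3 read −1.36 and −1.67 on the arrays labelled knockout, against −2.83 and −1.46 on those labelled wild type (0.63 ± 0.52, overlapping). Iglv1, a lambda variable gene, was above background only on the arrays labelled knockout, at −4.13 and −3.76, against −6.34 and −7.13 on those labelled wild type, which makes it at least 1.60-fold higher.

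**Figure D2:**
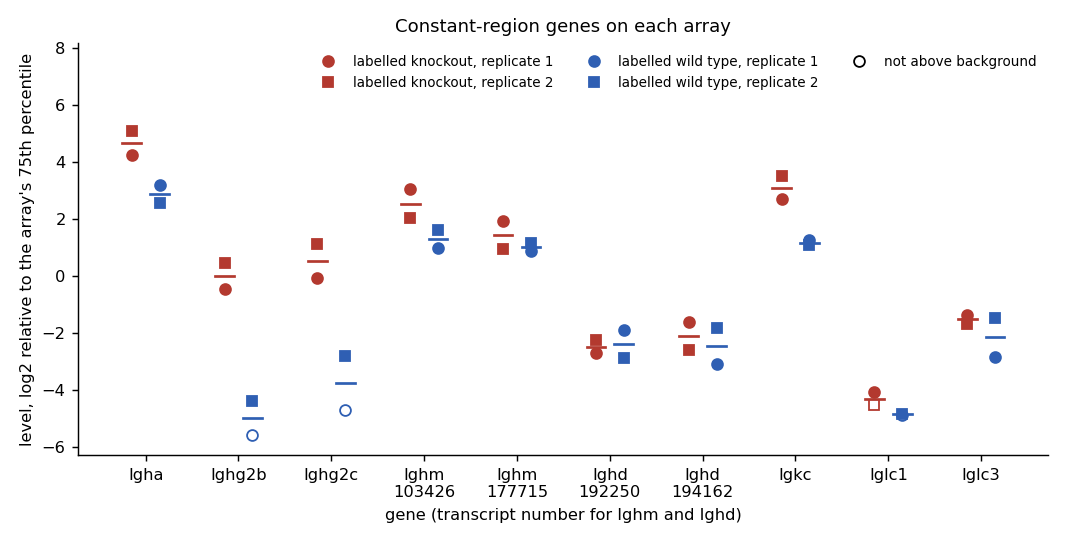
Level of each constant-region gene on each of the 4 arrays, in log2 relative to the array's 75th percentile (vertical axis), with arrays labelled knockout in red and arrays labelled wild type in blue; bars are group means and open symbols were not above background. Ighg2b, Ighg2c, Igha, Ighm ENSMUST00000103426 and Igkc separate the groups, while Ighd, the other Ighm transcript and Iglc3 do not. Iglc1 lies higher on both arrays labelled knockout but was above background on only 1 array of each group. Levels are comparable within a gene, not between genes.

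Kappa variable genes made up the largest class. Of 32 members, 25 were higher on both arrays labelled knockout, 3 were lower and 4 overlapped, with a median difference of 2.11. However, 19 of the 25 were detected on the arrays labelled knockout alone and could only come out higher, and with members at their bound the median was 1.25. The Igkv4 family held 17 members. Of these 12 were detected on the arrays labelled knockout alone, several of them with nearly the same probe, and the other 5, detected on all arrays, held 4 higher and 1 lower, with a median of 0.73. Outside that family 7 of 15 kappa variable members were detected on the arrays labelled knockout alone, and of the other 8, 2 were higher, 2 lower and 4 overlapped (median 0.54). No difference between the families was tested. Over all names on the array, detected or not, 21 of 23 Igkv4 names were higher on both arrays labelled knockout and 1 was lower (median 1.88). That count also ranks values under background, which have no order, and the share over all genes without the filter was not computed.

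The 6 highest lower bounds among kappa variable members were all in that family. Igkv4-55 read −1.80 and −1.41 on the arrays labelled knockout, against −6.48 and −7.21 on those labelled wild type. It was detected on the arrays labelled knockout alone, and was at least 8.09-fold higher (limma adjusted p = 0.0866). Igkv4-60 was at least 6.85-fold higher, at −2.43 and −1.27 on the arrays labelled knockout, against −6.57 and −5.93 on those labelled wild type. Igkv4-57-1 and Igkv4-62, whose probes are nearly the same, were at least 5.40-fold and 7.45-fold higher. Igkv4-68, also of that set, was at least 7.90-fold higher and Igkv4-63, alike to Igkv4-60, at least 6.10-fold.

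Igkv4-71 was detected on every array, at −0.68 and −0.38 on the arrays labelled knockout, against −2.51 and −2.87 on those labelled wild type. The groups stood well apart, by 2.16 ± 0.31 (limma adjusted p = 0.230), and this was the largest difference among chains above background on all 4 arrays. Igkv4-70, the next Igkv4 member along the locus, was also detected throughout and differed by 1.40 ± 0.28. Igkv4-58 and Igkv4-50, detected on all arrays as well, were higher by 0.73 ± 0.46 and 0.70 ± 0.29, and Igkv4-58 by 0.14 without knockout replicate 2.

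Igkv4-72 went the other way. It read −1.21 and −1.79 on the arrays labelled knockout, against 0.25 and 0.58 on those labelled wild type, detected on all 4. The difference was −1.92 ± 0.34 (limma adjusted p = 0.328), although its probe lies 16.2 kb from that of Igkv4-71 and 273.4 kb from that of Igkv4-58, which shares 46 of 57 bases with it. A further probe carrying the name Igkv4-72, outside the wording of the rule and at chr6:69176852-69176911 on mm9, read −1.54 and −1.35 on the arrays labelled knockout, against −1.40 and −1.66 on those labelled wild type. That probe overlapped between groups, so the lower signal of Igkv4-72 rests on 1 of 2 probes placed at the segment.

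Igkv1-35 and Igkv12-46 were the other kappa members lower on both arrays labelled knockout. Igkv1-35 read −5.71 and −6.44 on the arrays labelled knockout, not above background on either, against −3.80 and −4.07 on those labelled wild type. That makes it at least 1.78-fold lower on the arrays labelled knockout. Igkv12-46 was lower by less, at −2.07 and −2.60 on the arrays labelled knockout, against −1.87 and −1.64 on those labelled wild type (difference −0.59 ± 0.33, and −0.32 without knockout replicate 2). Igkv8-19, detected throughout, overlapped with a difference of 0.04 ± 0.34.

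Some kappa variable members were much higher on 1 array labelled knockout than on the other. Igkv3-7 read −4.22 and −1.22 on the arrays labelled knockout, against −5.29 and −5.50 on those labelled wild type. Igkv3-4 read −5.22 and −1.69 on the arrays labelled knockout, against −4.02 and −4.74 on those labelled wild type, and so overlapped. Igkv10-96 was likewise higher on knockout replicate 2, at −3.72 and −1.74 on the arrays labelled knockout, against −6.07 and −7.15 on those labelled wild type. Over all 66 chains, 47 were higher on knockout replicate 2 than on replicate 1, against 10830 of 22497 genes. The median absolute gap between replicates was 0.719 for the arrays labelled knockout and 0.727 for those labelled wild type among chains, against 0.385 and 0.426 over all genes.

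Most heavy variable members were close to the detection limit. Of 22 members, 14 were higher on both arrays labelled knockout, 0 were lower and 8 overlapped. Of the 14, 12 were detected on the arrays labelled knockout alone and could only come out higher, and the median difference was 1.76, or 0.46 with members at their bound. All 12 belong to the Ighv1 family, the largest of the mouse heavy locus, which held 14 members, several with alike probes. Of its other 2 members Ighv1-7 was higher and Ighv1-64 overlapped. Of the 8 members outside Ighv1, none of them detected on the arrays labelled knockout alone, 1 was higher, Ighv14-3, and their median was 0.17. Over all names, detected or not, 19 of 46 Ighv1 names were higher on both arrays labelled knockout and 0 were lower (median 0.653), out of 21 higher and 1 lower among all 99 heavy variable names. Here too values under background were ranked, and no share over all genes without the filter was computed.

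The highest lower bound of the heavy variable members was that of Ighv1-52, at least 2.15-fold higher. Ighv1-81 read −3.68 and −3.96 on the arrays labelled knockout, against −6.39 and −7.06 on those labelled wild type, where it was not above background, and was at least 1.74-fold higher. Ighv1-85 and Ighv1-77 were at least 1.70-fold higher, Ighv1-39 at least 1.69-fold, and Ighv1-4 and Ighv1-83 at least 1.46-fold. Several Ighv1 probes are alike, with Ighv1-73 and Ighv1-83 matching at 51 of 53 bases and Ighv1-2 and Ighv1-4 at 53 of 56.

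The 3 heavy variable genes above background on all arrays showed no separation. Ighv10-3 read −3.81 and −2.59 on the arrays labelled knockout, against −3.52 and −3.12 on those labelled wild type (difference 0.12 ± 0.49). Ighv5-17 read −3.40 and −2.60 on the arrays labelled knockout, against −3.22 and −2.65 on those labelled wild type (−0.06 ± 0.41). Ighv1-64, the Ighv1 member that did not separate, differed by −0.05 ± 0.51. Ighv1-7, one of the brighter heavy variable probes, read −3.42 and −2.12 on the arrays labelled knockout, against −3.56 and −5.46 on those labelled wild type, with wild type replicate 2 not above background (difference 1.74 ± 0.78). Without that array its difference was 0.79, and without knockout replicate 2 it was 1.09. Ighv8-8 and Ighv3-8 were each detected on 1 array of each group and differed by −0.68 ± 0.69 and 0.08 ± 1.37.

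**Figure D3:**
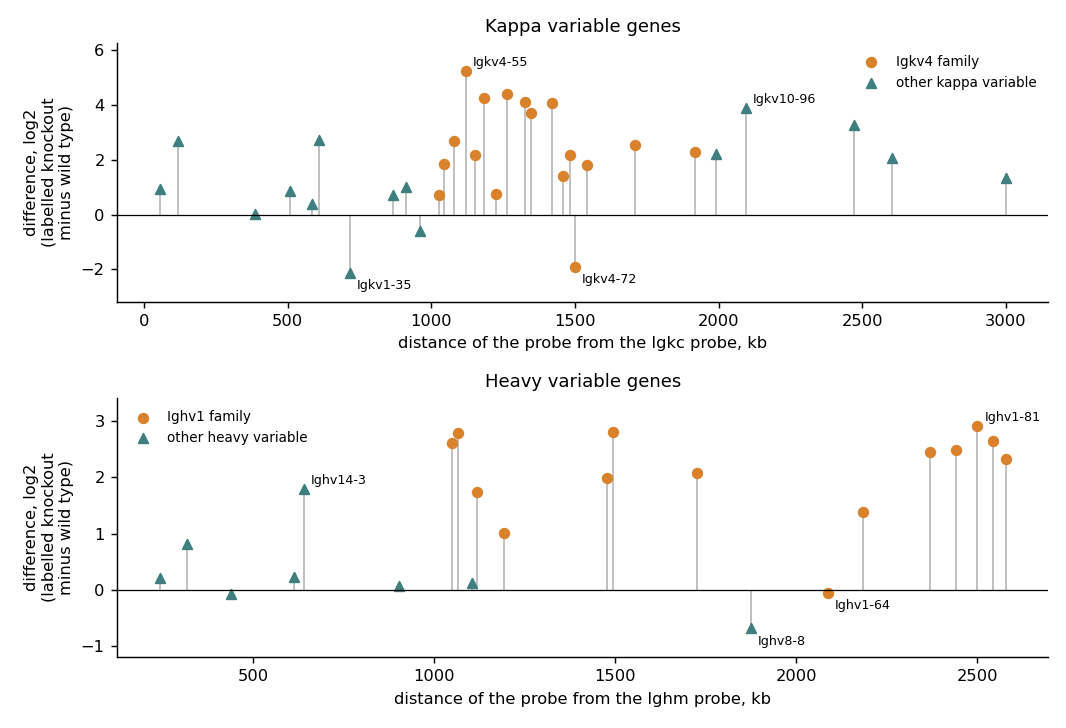
Difference of each variable gene in log2 (arrays labelled knockout minus arrays labelled wild type) against the distance of its probe from the Igkc probe (upper panel) or the Ighm probe (lower panel) in kb. Igkv4 members (orange, upper) lie between 1026 and 1920 kb, with Igkv4-72 below 0 among higher neighbours, and Ighv1 members (orange, lower) lie farther out than most other heavy variable members. The members plotted include chains that passed the filter through the arrays labelled knockout alone.

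Along the loci, the Igkv4 members lay 1026.0 to 1919.5 kb from the Igkc probe, and the remaining kappa members on both sides of them, from 54.6 to 3001.3 kb. Higher and lower members were interleaved: Igkv1-35, at 715.7 kb, lay between Igkv8-30, at least 2.65-fold higher, and Igkv12-41, which overlapped (difference 0.70). The Ighv1 members lay 1048.4 to 2579.4 kb from the Ighm probe, past most of the other heavy variable members. Position and family cannot be told apart here.

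Because each group held a bright and a dim array, the difference could also be taken between arrays of like brightness. The median over 66 chains was 1.54 between the bright arrays (knockout replicate 1 minus wild type replicate 2) and 1.96 between the dim ones (knockout replicate 2 minus wild type replicate 1). In both pairs 51 chains were higher and 3 were lower on the array labelled knockout, against 28.9% and 31% of all genes. Of the 66, however, 32 had passed the filter through the arrays labelled knockout alone, which favours higher values there. Among the 19 chains above background on all 4 arrays, 12 were higher and 2 lower in both pairs. Their medians were 0.434 in the bright pair and 0.865 in the dim pair. Of the 20068 genes above background on all arrays, 5647 were higher and 6358 lower in both pairs. Ighg2b differed by 3.91 in the bright pair and 6.04 in the dim pair, Ighg2c by 2.75 and 5.83, Igha by 1.71 and 1.92, and Igkc by 1.63 and 2.23. Without knockout replicate 2, which lacked adipocyte signal, the chain median was 1.39 with 53 chains higher and 13 lower, and without wild type replicate 1 it was 2.02. The summed level of 7 adipocyte markers was 615.1 and 28.77 times the 75th percentile on the arrays labelled knockout, against 391.0 and 663.3 on those labelled wild type. Its part in the result was not tested.

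**Figure D4:**
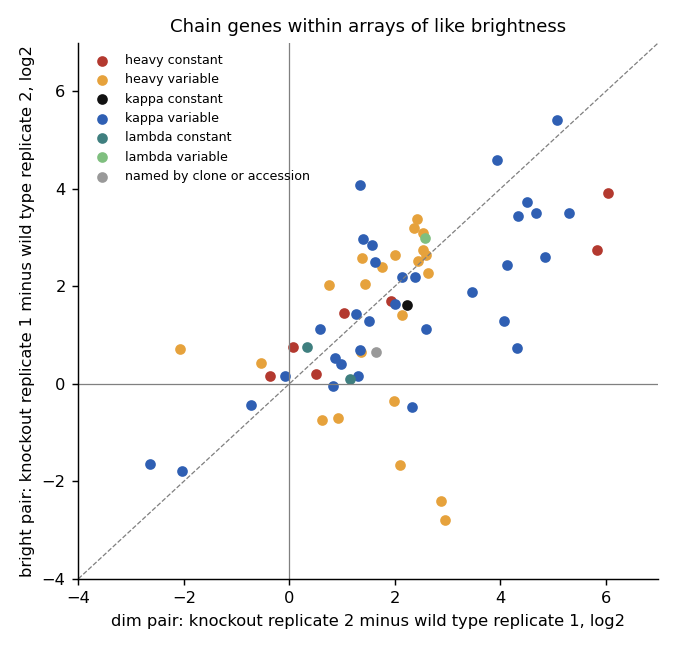
Difference of each chain gene between the dim arrays (horizontal axis) and between the bright arrays (vertical axis), each as array labelled knockout minus array labelled wild type in log2, coloured by class; the dashed line marks equal differences. Of 66 genes 51 lie above 0 on both axes and 3, all kappa variable, below 0 on both. The 51 include chains that passed the filter through the arrays labelled knockout alone.

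Genes of the cells that make antibodies did not move as a block. Among 18 measured plasma cell and antibody secretion genes, 6 were higher on both arrays labelled knockout, 0 were lower and 12 overlapped, against 16.1% higher and 13.7% lower over all genes. The median difference was 0.18, and none passed the adjusted p. Another 2 of the 20 listed genes, among them Tnfrsf17, the plasma cell receptor BCMA, were not above background on 2 arrays. Jchain, the joining chain that links IgA and IgM units into polymers, read 0.62 and 1.15 on the arrays labelled knockout, against −1.03 and −1.63 on those labelled wild type. It was detected on every array and separated the groups by 2.22 ± 0.37 (limma adjusted p = 0.284). Slamf7, a surface receptor of plasma cells, read −2.25 and −1.42 on the arrays labelled knockout, against −4.70 (not above background) and −2.59 on those labelled wild type. Its difference of 1.81 ± 0.77 was 0.76 without wild type replicate 1 and 0.34 between the bright arrays. Tnfrsf13b, the receptor TACI, differed by 0.96 ± 0.46, by 0.49 without wild type replicate 1 and by 0.61 without knockout replicate 1. Xbp1, the transcription factor that expands the secretory apparatus, and Mzb1, a chaperone of antibody assembly, each overlapped at 0.06 ± 0.32.

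B cell identity genes were mixed. Of 20 measured, 5 were higher on both arrays labelled knockout, 2 were lower and 13 overlapped, beside 16.1% higher and 13.7% lower over all genes, with a median difference of 0.0906. Ms4a1, which encodes CD20, was lower, at −2.78 and −3.51 on the arrays labelled knockout, against −2.58 and −1.90 on those labelled wild type (difference −0.90 ± 0.42). That difference was −0.54 without knockout replicate 2 and −0.56 without wild type replicate 2. Cd79b, part of the B cell receptor, differed by 0.00 ± 0.38, while Cd180 was higher on both arrays labelled knockout (1.27 ± 0.43). The octamer factor gene Pou2f2, detected on the arrays labelled knockout alone, was at least 2.11-fold higher. It read −4.12 and −2.97 on the arrays labelled knockout, against −4.45 and −5.05 on those labelled wild type, and its difference of 1.20 was 0.63 without knockout replicate 2.

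**Figure D5:**
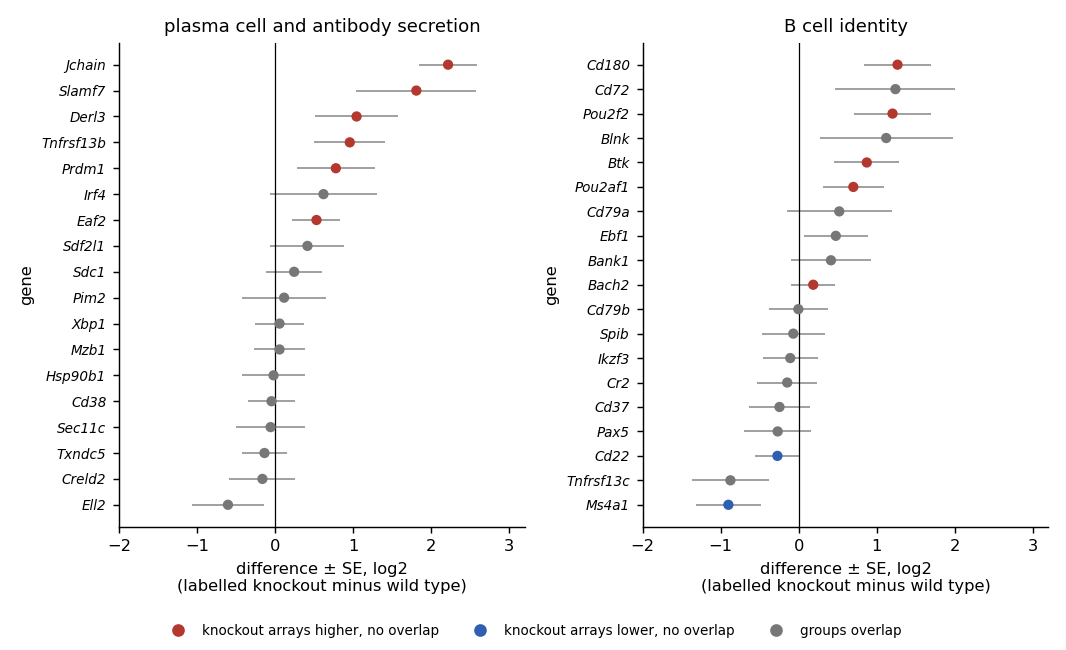
Difference ± SE in log2 (arrays labelled knockout minus arrays labelled wild type, horizontal axis) for measured genes of plasma cells and antibody secretion (left) and of B cell identity (right). Jchain, at 2.22, lies farthest from 0, and red marks the 6 and 5 genes higher on both arrays labelled knockout while blue marks the 2 lower.

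Genes that rearrange and edit antibody loci, and the surrogate chains used by B cell precursors, differed little. Of 9 measured genes of V(D)J recombination, hypermutation and class switching, 1 was higher on both arrays labelled knockout, Dclre1c, the hairpin-opening nuclease Artemis (0.84 ± 0.28), and 8 overlapped, where 16.1% of all genes were higher. The template-free polymerase gene Dntt and the end-joining gene Xrcc4 were among the overlapping ones, at −0.48 ± 0.38 and −0.29 ± 0.36. Of 3 measured surrogate light chain genes, Vpreb3 was lower (−1.02 ± 0.55, and −0.33 without wild type replicate 2) and Vpreb1 and Vpreb2 overlapped. Igll1, the surrogate light chain partner, was not above background on any array.

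Receptors that bind antibodies and factors that sustain B cells were also measured. Of 8 antibody receptor and transport genes, 4 were higher on both arrays labelled knockout and 4 overlapped (median 0.869), where 16.1% of all genes were higher. Fcgr1, the high-affinity IgG receptor and also a macrophage marker, read 0.50 and −0.69 on the arrays labelled knockout, against −1.94 and −1.99 on those labelled wild type (difference 1.87 ± 0.47, limma adjusted p = 0.525). The inhibitory IgG receptor gene Fcgr2b read −0.71 and −0.77 on the arrays labelled knockout, against −2.17 and −1.31 on those labelled wild type, without overlap, and differed by 0.58 when wild type replicate 1 was left out. Fcer1g, the shared signalling chain, read 3.91 and 3.60 on the arrays labelled knockout, against 1.54 and 3.43 on those labelled wild type. Its difference of 1.26 ± 0.67 was 0.32 without wild type replicate 1, the array with the lowest summed level of macrophage markers. Of 8 survival, help and homing factors, 3 were higher and 5 overlapped. Higher were, among others, Tnfsf13b, the B cell survival factor BAFF (1.04 ± 0.32), and the T cell helper receptor gene Icos (at −2.49 and −2.26 on the arrays labelled knockout, against −4.20 and −3.55 on those labelled wild type), while Icosl overlapped at 1.13 ± 0.67.

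Markers of other cells that the dissected tissue could hold also differed between arrays. Over all genes 16.1% were higher and 13.7% lower on both arrays labelled knockout. T cell markers were higher for 5 of 8 and lower for 0, with a summed level of 4.015 and 5.166 times the 75th percentile on the arrays labelled knockout, against 4.426 and 3.283 on those labelled wild type. Lymph node markers, which would mark a dissected node, were higher for 1 of 5 and lower for 1, with a summed level of 45.82 and 67.04 on the arrays labelled knockout, against 61.91 and 26.97 on those labelled wild type. Red blood cell markers summed to 219.7 and 389.3 on the arrays labelled knockout, against 256.2 and 151.2 on those labelled wild type. Macrophage markers were higher for 4 of 8 and lower for 1, smooth muscle markers higher for 0 of 8 and lower for 5, and skeletal muscle markers higher for 1 of 7 and lower for 4. The part of these cells in the antibody gene differences was not tested.

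Rbpj, the transcription factor of Notch signalling, and its relative Rbpjl were the members that are not antibody chains. Rbpj read 1.77 and 1.22 on the arrays labelled knockout, against 0.74 and 1.13 on those labelled wild type (difference 0.56 ± 0.34). With wild type replicate 1 left out it differed by 0.37, and with knockout replicate 1 left out by 0.29. Rbpjl was above background only on the arrays labelled knockout, at −3.99 and −3.67, against −4.87 and −5.17 on those labelled wild type, and was at least 1.73-fold higher.

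Of the 152 names that did not pass, 125 were above background on 0 arrays and 27 on 1 array, which for 26 of them was labelled knockout (20 on replicate 2, 6 on replicate 1). Just inside the threshold, Ighv1-73 read −5.01 and −3.92 on the arrays labelled knockout, against −6.54 and −7.29 on those labelled wild type. Just outside it, Igkv4-79 read −4.99 and −2.18 on the arrays labelled knockout, against −5.54 and −5.40 on those labelled wild type.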

How the data were processed

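The 4 Agilent one-colour arrays, 2 in each group, shared 1 slide. According to the notes in the file headers, Agilent Feature Extraction (version 12.0.3.1) had turned each spot's intensity into a processed signal by subtracting background and removing spatial trends, with no scaling between arrays; per the submitters' processing notes the version was 10.7 and limma was used, with no role given. Mean spot and local background columns hold unprocessed intensity, and the columns on detection and outliers hold flags, both per the file headers. A value table deposited by the authors holds log2 values, with column medians of 4.32 and 4.32 for the arrays labelled knockout and 4.33 and 4.32 for those labelled wild type; its centring is not given in the sources used here, and 56605 of 56732 entries matched a probe. Positions are on mm9 as the files give them.

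Each level is the log2 processed signal after subtraction of the 75th percentile of that array's non-control probes; outlier spots were left out and repeated spots averaged. Probes above background on at least 2 arrays were kept (35102 of 56605), the brightest probe per name gave 22497 genes, and no batch could be told from the files. Groups were compared with limma 3.58.1 (lmFit, eBayes) under R 4.3.3, as two-sided tests adjusted over all genes by Benjamini-Hochberg, at a threshold of 0.05. Files were read with the data.table package (version 1.17.8), and Python 3.11.15 with matplotlib 3.10.9 made the plots. The fit was tested on simulated data.

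The members and the 13 gene lists were chosen with earlier results of these data known. Named genes were Msr1, every constant gene and every member that is not a chain, of the variable genes of each chain the 4 largest and 4 smallest differences and the 4 brightest, and from each list the 3 measured genes of lowest p; other genes named here were chosen after their values were seen. The alternatives were quantile normalisation, normexp (offset 50) as background correction, dropping the filter or asking for all 4 arrays, the mean of a gene's probes, the deposited values, the array's signal level as a block, an intensity trend, and each array left out. One gene of the B cell list is counted but not reported here by name or plotted. The number of arrays limits the precision.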

Additional observations from a re-analysis of the deposited data

How the results depend on the processing

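No paired analysis was possible because the labels number the wild type samples 2 and 3 and the knockout samples 4 and 5, so that no number is shared, and replicates 1 and 2 in the text are names in deposit order. Slide as a block was not run because all 4 arrays lie on 1 slide. No chain gene and no gene of all passed the adjusted p in limma with the settings of the report, where 38 chains were higher and 2 lower at an unadjusted p under 0.05. Quantile normalisation, no filter on dim probes and the deposited values each passed 1 chain, Igkv4-55, and 8 genes of all. Igkv4-55 is a member only through the arrays labelled knockout, and its values on the arrays labelled wild type lie under background. Normexp background correction passed 21 genes of all and 0 chains, and an intensity trend 5 and 0. With single arrays left out, the chains passing ranged from 0 to 23, all genes passing from 0 to 371, and B cell and plasma cell genes from 0 to 2; the non-zero counts came without an array labelled wild type, where the lone one left is assumed to vary like those labelled knockout. The cause was not tested. The median chain difference, 1.82 in the report, was 0.171 with normexp and 0.629 over the genes above background on all 4 arrays, a set of fewer genes, and ranged from 1.39 to 2.20 with single arrays left out. With normexp the medians were 0.125 for heavy variable and 0.224 for kappa variable genes, and 1.18 for heavy constant genes.

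Single-gene results over all alternatives were counted only for the genes picked by the rule for named genes given above. Of those results, 28 turned direction and the others kept it. Under normexp these were Iglc1 (−0.0157), Ighv3-8 (−0.0831), Ighv10-3 (−0.0765), Igkv8-19 (−0.00304) and Vpreb2 (−0.0111); Vpreb2 also turned with quantile normalisation (−0.0173) and the deposited values (−0.0118). Leaving out single arrays gave ranges across 0 for Ighd ENSMUST00000192250 (−0.591 to 0.383) and ENSMUST00000194162 (−0.280 to 0.990), Ighm ENSMUST00000177715 (−0.0654 to 0.906), Iglc3 (−0.0578 to 1.32), Ighv8-8 (−1.49 to 0.124), Ighv5-17 (−0.462 to 0.336), Ighv1-64 (−0.700 to 0.605), Ighv3-8 (−1.78 to 1.94), Ighv10-3 (−0.496 to 0.729), Igkv8-19 (−0.242 to 0.316), Xrcc4 (−0.633 to 0.0551), Vpreb2 (−0.630 to 0.768), Glycam1 (−1.01 to 0.104) and Cidec (−8.19 to 0.349). Genes outside that rule turned too when single arrays were left out. Among members these were Igkv3-4 (−0.836 to 2.69), Igkv8-28 (−1.61 to 2.39), Ighv3-2 (−1.57 to 2.04), Ighv5-9 (−0.769 to 1.20) and Ighv5-9-1 (−0.0341 to 1.68). Listed genes that turned include Xbp1, Mzb1, Cd79b and Adipoq. Signal over background limits the variable genes: 47 of 66 chains were not above background on all 4 arrays, and for those a difference is a bound or rests on the arrays that detected them.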

Other observations

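A few immunoglobulin probes lie outside the annotation wording that chose the members. A probe named Ighg3, within the heavy constant region, was above background on every array and read −3.57 and −3.50 on the arrays labelled knockout, against −3.16 and −4.49 on those labelled wild type, while the Ighg3 probe covered by the wording was detected on no array. The clone NAP115053-1, whose probe also lies within the heavy constant region, read −1.58 and −2.01 on the arrays labelled knockout, against −1.64 and −1.43 on those labelled wild type. Both overlapped between the groups. Probes named Igkv4-53 and Igkv4-55 with no position in the files were not above background on any array, although the members of those names, measured by other probes, were above background on both arrays labelled knockout. Among the names that the wording covers but the filter left out, an unmapped probe annotated as a partial heavy chain mRNA of mouse strain BALB/c was above background on knockout replicate 2 alone. It read −5.48 and −1.11 on the arrays labelled knockout, against −6.33 and −5.17 on those labelled wild type.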
